A study of Mus musculus with 32 samples.

Results

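Imprinted genes are expressed mainly or only from the copy inherited from 1 parent. A list of 30 mouse imprinted genes was followed in a stromal cell line cultured without or with azacitidine, and the members were listed by name as imprinted genes; earlier results of these data were known when the list was drawn up. Of the 30, 24 had a row in the table of 21829 mouse genes: 12 of 13 maternally expressed and 12 of 17 paternally expressed members. The 6 members with no row in the table used here were Peg3, Snrpn, Magel2, Kcnq1ot1, Zim1 and Usp29.

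The parental copies of an imprinted gene differ in DNA methylation that is laid down in the egg or the sperm and kept through cell division. At several domains the methylated stretch is the promoter of a paternally expressed gene (Mest, Zrsr1, Impact, Airn, Plagl1, Nnat, Peg10 with Sgce), while the neighbouring maternally expressed genes are controlled at a distance. Azacitidine is a cytidine analogue that is built into nucleic acids and traps DNA methyltransferases, so that methylation is lost as cells divide. Many members act on growth: Igf2 is a growth factor, and Igf2r, Cdkn1c, Phlda2, Grb10 and H19 are counted among its brakes.

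All 32 libraries came from EL08-1D2, a mouse mesenchymal stromal line derived from embryonic liver and used to support blood-forming cells in culture. The 16 libraries of 1 group had no azacitidine, and the 16 of the other were from cells given azacitidine; the labels name no other agent or allele. Dose and duration were not given in the sources used here. No label states that libraries of a group were separate cultures, so the p-values speak only to the spread among these libraries, and that spread may be technical. The line is 1 stromal line of 1 tissue, and it says nothing of the placenta or the embryo, where many members have their known roles. The values are counts of unique molecular identifiers (UMIs, 1 per captured cDNA molecule) and carry no allele information, so the parental origin of a change cannot be read from them. In these bulk samples, fewer cells of a type and less RNA per cell cannot be told apart.

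Library totals ran from 818619 to 3210801 UMIs without and from 1226861 to 5039721 with azacitidine. Replicate numbers 1 to 4, 5 to 8, 9 to 12 and 13 to 16 are called runs here, because libraries were on average somewhat more alike within than between them. With group means taken out, libraries without azacitidine had a mean pairwise r of 0.08 inside a run and of -0.10 across runs, and those with azacitidine had 0.33 and -0.16. What the runs are is not given in the sources used here. A set of 5 libraries stood apart, all of them in run 1: numbers 1 and 2 without and numbers 1, 2 and 4 with azacitidine. After group means were removed, their mean correlation across genes was 0.77 among themselves and -0.20 with the others. All 10 stromal markers had UMIs, but Thy1 had 0 UMIs without and 26 with azacitidine, and the summed level of the 10 ran from 7736 to 10360 counts per 1000000 UMIs (CPM) without and from 5007 to 8038 with. Of 12 trophoblast markers 7 were in the table, of which Eomes, Tpbpa, Hand1 and Prl3d1 had 0 UMIs without and 4, 1, 1 and 1 with azacitidine, Syna had 3 and 2, and Krt7 had 68 and 84. The summed level of the list ran from 357 to 711 CPM without and from 296 to 536 CPM with azacitidine, nearly all of it Prl2c2, which had 516 ± 118 and 400 ± 78 CPM. Summed epithelial markers ran from 2.92 to 9.90 CPM without and from 71.9 to 148 CPM with, and the neuronal ones from 22.1 to 36.0 CPM and from 36.6 to 63.4 CPM. Of 8 hepatocyte markers 3 were in the table, with 3 and 26 UMIs of Afp. By the fit with no filter, described below, 1 of the 3 was higher and 2 were lower with azacitidine. Summed hepatocyte markers ran from 0 to 2.10 CPM without and from 0 to 2.08 CPM with azacitidine. Of 10 blood cell markers 8 were in the table, with 1 and 4 UMIs of Ptprc. Summed blood cell markers ran from 6.72 to 14.8 CPM without and from 6.76 to 18.5 CPM with azacitidine. The part of these markers in the results below was not tested.

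The bases just before the start are shown for 3 members with their CG pairs, the main place of DNA methylation in mammals. A link between CG number and change with azacitidine was not tested. Phlda2 and Ascl2 lie in the same domain, and of them only Phlda2 passed the test below, and Dlk1 was at 0 UMIs without azacitidine. Each run of 250 bases ends at the base before the RefSeq start (RefSeq, GRCm38.p6) and is written 5′ to 3′ on the strand of the gene, with CG in capitals. They lie at chr7:143502525-143502774 on the minus strand (Phlda2), chr7:142969265-142969514 on the minus strand (Ascl2) and chr12:109452573-109452822 on the plus strand (Dlk1). GENCODE M21 extends Phlda2 upstream to base 143503150, so that window lies within the span annotated there.

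Phlda2: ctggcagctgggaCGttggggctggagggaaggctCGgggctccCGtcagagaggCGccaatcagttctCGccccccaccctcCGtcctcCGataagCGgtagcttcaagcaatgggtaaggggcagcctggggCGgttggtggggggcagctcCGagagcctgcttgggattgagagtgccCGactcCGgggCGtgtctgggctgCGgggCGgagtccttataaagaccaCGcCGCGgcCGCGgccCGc
Ascl2: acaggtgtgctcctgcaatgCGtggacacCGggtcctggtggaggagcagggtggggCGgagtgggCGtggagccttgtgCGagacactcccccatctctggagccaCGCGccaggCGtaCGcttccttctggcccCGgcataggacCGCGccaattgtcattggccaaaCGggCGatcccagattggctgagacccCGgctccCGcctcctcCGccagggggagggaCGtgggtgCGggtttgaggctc
Dlk1: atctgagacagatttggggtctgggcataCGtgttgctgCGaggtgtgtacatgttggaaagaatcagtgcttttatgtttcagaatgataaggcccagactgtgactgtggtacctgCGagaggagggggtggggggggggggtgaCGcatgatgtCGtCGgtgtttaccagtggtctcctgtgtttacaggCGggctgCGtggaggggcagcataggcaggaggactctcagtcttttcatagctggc

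The motif searched was CG, which reads the same on both strands. Phlda2 held 21 CG pairs, and 16.3% of the 32851 promoters in the RefSeq table held at least as many. Ascl2 held 19, with 19.7% of all promoters at or above it, and Dlk1 held 8, with 43.0%. Over all promoters the median was 6 and 92.1% held at least 1. The 18 members that had a row in the count table and an entry among the promoters had 29 promoters, with a median of 10 CG pairs and a range from 0 (Slc22a18, Rian and the second entry of Meg3) to 40 (an entry of Grb10). A CG count describes letters and is no measure of methylation, which was not measured here.

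The question put to the members was whether a drug that lowers DNA methylation moved imprinted genes, and whether maternally and paternally expressed ones moved differently. Among the 11 members that passed edgeR's expression filter, 0 differed at an adjusted p under 0.05, against 5.65% of all 9344 genes tested (edgeR quasi-likelihood test, Benjamini-Hochberg adjustment over all genes). At an unadjusted p under 0.05 there were 3 (H19, Rian and Igf2r), against 17.1% of all genes, and DESeq2 and limma-voom also called 0, against 6.05% and 6.01% of all genes. Their log2 fold changes (with over without azacitidine) ran from -0.22 to 0.47 with a median of 0.04, beside 0.00 for all genes tested. In the fit with no filter, which holds all 24 members, 2 rose: Phlda2 and Cdkn1c, against 3.94% of 21822 genes called in either direction and 3.29% called higher. In that fit 7 members had an unadjusted p under 0.05, against 13.3% of all genes. For none of the 11 members were the libraries of the groups separate, and 0.289% of all genes tested had groups that did not overlap.

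The 4 members of the Kcnq1ot1 domain on chromosome 7 that had a row are all maternally expressed. In the fit with no filter 2 of them rose, against 3.29% of all genes called higher. With 4 genes such a count says little of the domain. Both that rose were nearly silent without azacitidine. Phlda2 (chr7:143501545-143503150), which encodes a small pleckstrin-homology protein known for restraining placental growth, had 3 UMIs in 2 libraries without azacitidine. With azacitidine it had 42 UMIs in 12 of 16 libraries. Per library the lowest, median and highest were 0, 0 and 2 UMIs without and 0, 2.5 and 6 with azacitidine, so most libraries with azacitidine were above most without, and the groups overlapped at low counts. The summed rate was 0.110 CPM without and 1.10 CPM with azacitidine, a ratio of 9.98 with a 95% exact interval of 3.19 to 50.3 that covers counting error only. The fitted log2 fold change was 2.78 (SE 0.60, adjusted p = 0.0012 by edgeR's quasi-likelihood test without filter). For members with so few UMIs in a group, a fitted value depends on the prior count. The UMIs came from every run, with 14, 10, 9 and 9 with azacitidine against 0, 1, 2 and 0 without. Phlda2 passed the threshold in all 32 fits that each left out 1 library and in each of the 12 alternatives of test, scaling and samples.

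Cdkn1c (chr7:143458339-143461050), an inhibitor of cyclin-dependent kinases, had 1 UMI without and 19 UMIs with azacitidine, a ratio of 13.5 with an interval of 2.15 to 563. The fitted log2 fold change was 2.43 (SE 0.68, adjusted p = 0.021 by edgeR without filter). Its UMIs with azacitidine lay in 5 libraries, with 7, 6 and 4 in numbers 1, 2 and 4, and 1 each in numbers 7 and 8; the other 11 libraries had 0. Among the libraries with azacitidine, numbers 1, 2 and 4 are those that stand apart. They were also deep, with totals of 5039721, 4458343 and 4015944 UMIs, beside 4218313 for number 7. Without the 5 libraries that stand apart the fitted value was 1.07 (adjusted p = 0.49), and 8 of 12 alternatives ended the call, DESeq2 among them (adjusted p = 0.74). Leaving out number 1 with azacitidine alone gave an adjusted p of 0.069, and leaving out number 2 gave 0.054, both by edgeR.

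The other members of that domain did not pass the test. Slc22a18, a transporter gene next to Phlda2, had 29 UMIs without and 38 with azacitidine, or 1.06 and 0.991 CPM summed. Ascl2, a transcription factor of trophoblast and stem cells, had 2 UMIs in each group. The fitted log2 fold changes were -0.02 for Slc22a18 (adjusted p = 0.98) and -0.24 for Ascl2 (adjusted p = 0.93), by edgeR without filter. A change of Ascl2 was not detectable at this depth, since both groups were under the floor of 3 counts over a group.

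**Figure D1:**
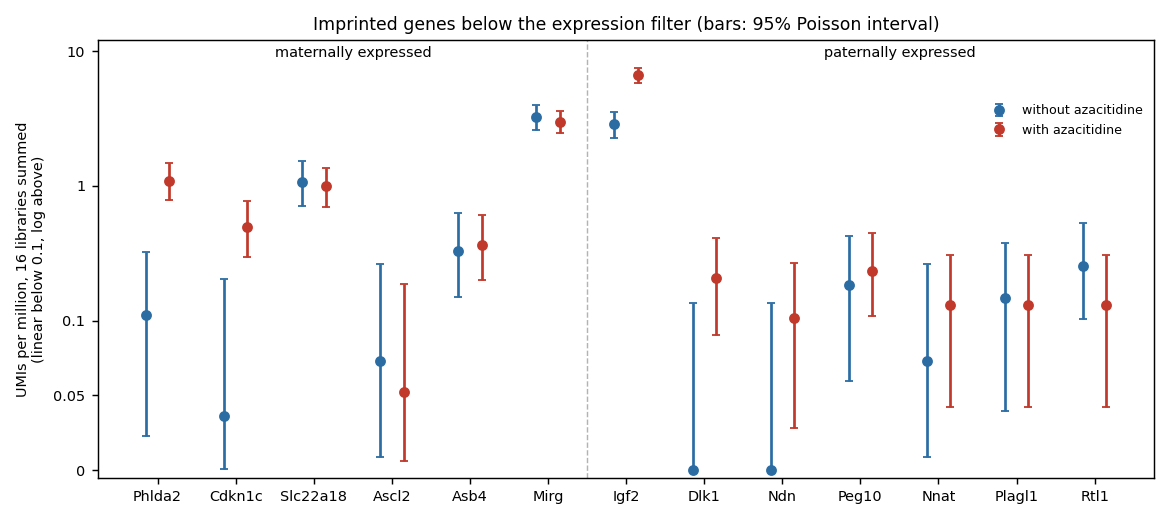
Summed UMIs in CPM (vertical axis, linear below 0.1 and logarithmic above) of the 13 imprinted members below the expression filter, each point being the sum over the 16 libraries of a group and each bar its 95% Poisson interval, which covers counting error only. Phlda2 stood at 0.110 without and 1.10 with azacitidine, and Dlk1 and Ndn were at 0 without.

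In the H19-Igf2 domain (chr7:142575529-142578143 and chr7:142650766-142666816), both genes share enhancers, and H19 is transcribed from the maternal and Igf2 from the paternal copy. H19, a long noncoding RNA, stood at 9.43, 23.9 and 36.3 CPM (lowest, median and highest library) without and at 14.9, 33.6 and 54.8 CPM with azacitidine. The groups overlapped, and 7 libraries with azacitidine lay above the highest library without. Means were 23.4 ± 7.9 and 33.1 ± 12.9 CPM (SD, n = 16 each), a log2 difference of 0.47 (SE 0.19) that did not pass after adjustment (edgeR, adjusted p = 0.18). Igf2 stood at 0, 1.84 and 9.37 CPM without and at 0, 3.22 and 15.5 CPM with azacitidine, the groups overlapping widely. Its fitted log2 difference was 1.04 (SE 0.52, adjusted p = 0.39 by edgeR without filter). Of its 78 UMIs without and 254 with azacitidine, run 1 held 53 and 201, and the deepest libraries of the study, numbers 1 and 2 with azacitidine, were in that run. With the run as a term Igf2 rose by 0.94 (edgeR, adjusted p = 0.00058). Within run 1 its log2 fold change was 0.97 (SE 0.26, adjusted p = 0.0071 by edgeR without filter), where 6.04% of all genes were called. In runs 2, 3 and 4 it was -0.59, 0.99 and 1.17, none past the threshold.

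Igf2r and Airn share a domain on chromosome 17 (chr17:12682406-12769664 and chr17:12741311-12860136) and overlap on opposite strands. Igf2r encodes the receptor that takes IGF2 to the lysosome, and Airn is the paternally expressed noncoding RNA that silences it in cis. Igf2r stood at 32.9, 53.1 and 64.1 CPM without and at 28.6, 43.6 and 54.2 CPM with azacitidine. Only 1 library with azacitidine was above the median of those without, yet the ranges overlapped. Its log2 difference was -0.22 (SE 0.10, edgeR adjusted p = 0.23). Airn stood at 8.41, 16.6 and 23.4 CPM without and at 5.47, 12.8 and 23.8 CPM with azacitidine, a log2 difference of -0.17 (SE 0.15, edgeR adjusted p = 0.63). Whether the counting kept strand was not given in the sources used here, so reads in the stretch that both genes cover cannot be assigned with certainty. The same holds for Mest with Copg2, Zrsr1 with Commd1, Nnat with Blcap, Gnas with Nespas, Igf2 with Igf2os and Rtl1 with Mir127.

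In the Dlk1-Meg3 domain of chromosome 12, Dlk1 and Rtl1 are paternally and Meg3, Rian and Mirg maternally expressed. Dlk1, a membrane protein of the Notch ligand family that holds back fat cell formation, had 0 UMIs in 16 libraries without azacitidine. The exact interval of that sum reached up to 0.135 CPM, and the floor of 3 counts over the group is 0.110 CPM. With azacitidine Dlk1 had 8 UMIs in 7 libraries, or 0.209 CPM summed, spread as 2, 1, 4 and 1 over the runs. The exact interval with azacitidine was 0.090 to 0.411 CPM, so the intervals of the groups overlapped. The summed rate was 1.90 times the floor, a ratio that takes the 8 UMIs as exact and is no lower bound. For Dlk1 the edgeR test without filter gave an adjusted p of 0.072. With the run as a term it passed the threshold (edgeR, adjusted p = 0.030), and so did it with spike-in scaling (0.041), but not with the run term on the sums of each run (0.31). Rian, a host of small nucleolar RNAs, stood at 10.2, 17.3 and 28.0 CPM without and at 11.9, 24.7 and 34.0 CPM with azacitidine. In 13 of 16 libraries with azacitidine Rian was above the median of those without, and 5 lay above the highest. Means were 17.9 ± 5.4 and 24.3 ± 6.6 CPM (SD, n = 16 each), a log2 difference of 0.40 (SE 0.15, edgeR adjusted p = 0.11). Rian passed the threshold without the 5 libraries that stand apart, at 0.53 (edgeR, adjusted p = 0.0041), and with the run as a term, at 0.39 (adjusted p = 0.021), but not with the run term on the sums of each run (adjusted p = 0.18). Leaving out number 4 with azacitidine alone also brought Rian past the threshold, at 0.46 (adjusted p = 0.037).

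Meg3, a long noncoding RNA at the head of the same maternal transcript cluster, stood at 139, 166 and 186 CPM without and at 120.0, 156 and 245 CPM with azacitidine. Both groups centred on like values, with a log2 difference of -0.04 (SE 0.07, edgeR adjusted p = 0.85). Mirg, a microRNA host RNA at the far end of the domain, had 88 UMIs without and 114 with azacitidine, a fitted difference of -0.12 (SE 0.25, adjusted p = 0.88 by edgeR without filter). Rtl1, derived from a retrotransposon, had 7 and 5 UMIs (edgeR without filter, adjusted p = 0.63). Rian, Meg3 and Mirg, neighbours in the maternal cluster, thus had log2 differences of 0.40, -0.04 and -0.12, and whether these differ from each other was not tested.

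Mest (chr6:30723547-30748465), a paternally expressed hydrolase of mesoderm and fat, varied more between runs than between groups. It stood at 13.8, 37.1 and 87.4 CPM without and at 11.3, 17.1 and 179 CPM with azacitidine. The 4 libraries with azacitidine that exceeded every library without were those of run 1, at 129 to 179 CPM, and the other 12 were at 11.3 to 23.9 CPM. Without azacitidine, runs 1 and 2 were at 51.5 to 87.4 and 60.2 to 67.1 CPM, and runs 3 and 4 at 13.8 to 16.96 and 18.5 to 22.6 CPM. The log2 difference over all libraries was 0.29 (SE 0.45, edgeR adjusted p = 0.82). Without numbers 1 to 4 it was -0.98 (edgeR, adjusted p = 0.0499). The sign also turned with run 1 kept, at -0.11 with the run as a term and at -0.06 with limma-voom, neither past the threshold, and in 6 of 13 alternatives in all.

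Grb10 and Gnas are imprinted in a manner that depends on tissue or transcript. Grb10 (chr11:11930508-12038683), an adaptor that dampens insulin signalling, stood at 115, 177 and 268 CPM without and at 95.7, 176 and 255 CPM with azacitidine, medians that lay close together (log2 difference -0.11, SE 0.12, edgeR adjusted p = 0.69). Gnas (chr2:174284320-174346744) encodes the stimulatory G protein alpha subunit and, from other promoters, transcripts of the maternal and of the paternal copy, which the counts add up. It stood at 259, 341 and 771 CPM without and at 261, 327 and 795 CPM with azacitidine (log2 difference 0.14, SE 0.18, edgeR adjusted p = 0.77). In the 5 libraries that stand apart Gnas was high and Grb10 low in both groups. Gnas was at 510 to 771 CPM there without and at 758 to 795 CPM with azacitidine, against 259 to 421 and 261 to 386 CPM in the others. Grb10 was at 115 to 117 and 95.7 to 105 CPM there, against 145 to 268 and 154 to 255 CPM in the others. These ranges describe libraries picked for standing apart and are no test.

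**Figure D2:**
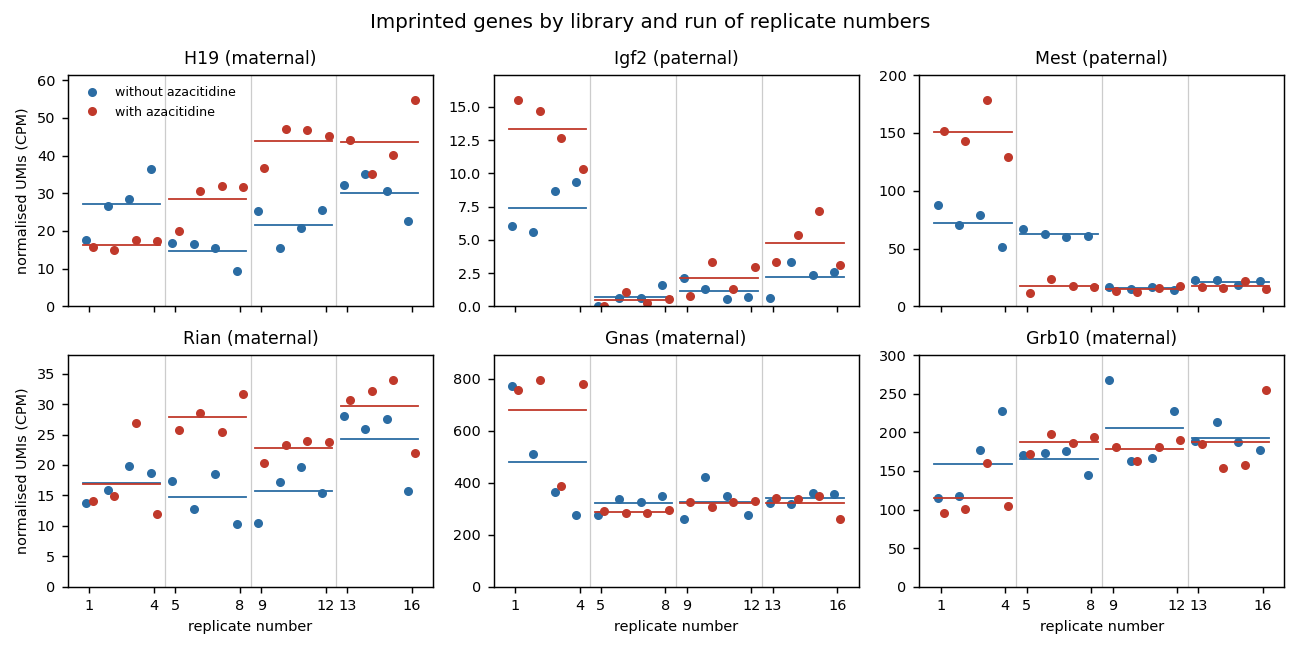
Normalised UMIs (CPM, vertical axis, from 0) of 6 imprinted members by replicate number (horizontal axis), with 1 point per library, blue without and red with azacitidine; short lines are the means of each run of 4 numbers. Mest with azacitidine lay at 129 to 179 CPM in numbers 1 to 4 and at 11.3 to 23.9 CPM in the others, and H19 with azacitidine was lowest in numbers 1 to 4.

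The remaining paternally expressed members past the filter moved little. Sgce, a sarcoglycan next to Peg10 on chromosome 6, stood at 84.0, 108 and 140 CPM without and at 84.0, 101 and 204 CPM with azacitidine (log2 difference 0.09, SE 0.10, edgeR adjusted p = 0.72). Impact, a regulator of the translation kinase GCN2, had means of 194 ± 28 and 184 ± 41 CPM (log2 difference -0.07, SE 0.09, edgeR adjusted p = 0.78). Zrsr1, an intronless relative of a splicing factor gene, had means of 15.7 ± 4.3 and 16.2 ± 1.9 CPM (log2 difference 0.04, SE 0.11, edgeR adjusted p = 0.93). The groups overlapped for each of the 3.

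The other low members had 14 UMIs or fewer in each group. Ndn, a MAGE family protein of neurons and fat precursors, had 0 UMIs without and 4 UMIs in 4 libraries with azacitidine, or 0.104 CPM summed, which is under the floor of 0.110 without, so no fold is given (edgeR without filter, adjusted p = 0.32). Nnat, a small membrane protein, had 2 and 5 UMIs, and Plagl1, a zinc finger factor, had 4 and 5. Peg10, derived from a retrotransposon, had 5 and 9, and Asb4, an ankyrin repeat protein, had 9 and 14. Their adjusted p-values ran from 0.77 to 0.96 (edgeR without filter).

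**Figure D3:**
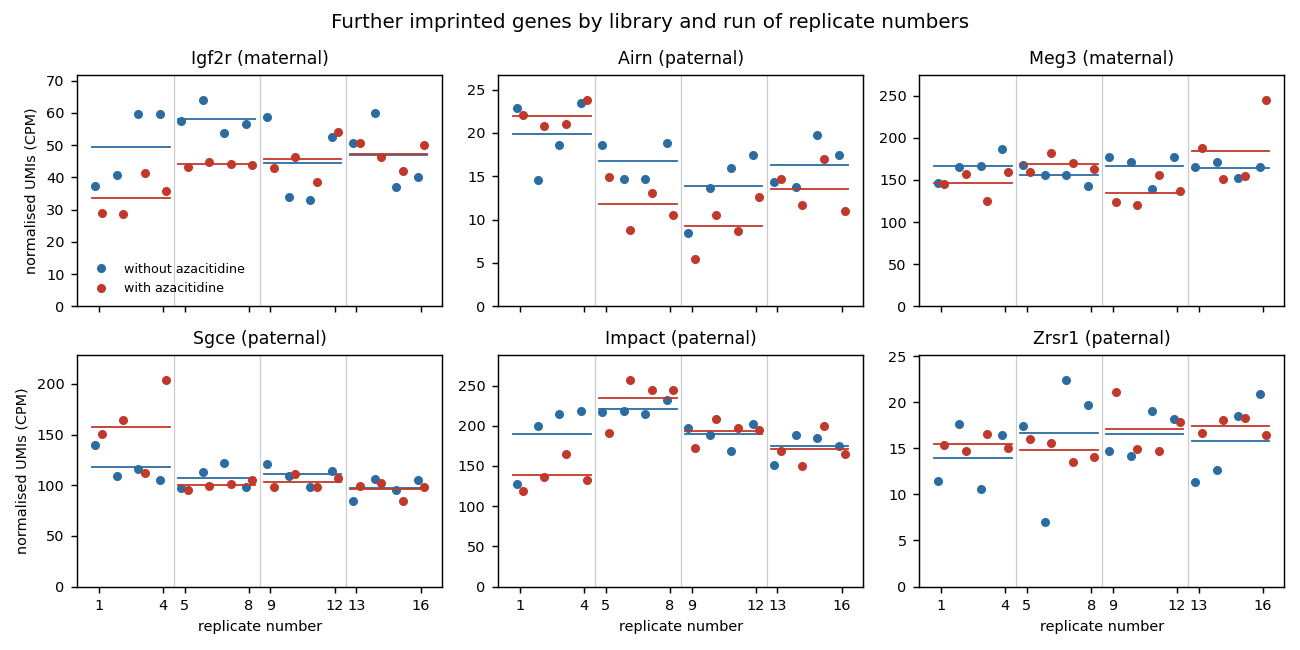
Normalised UMIs (CPM, vertical axis, from 0) of 6 further imprinted members by replicate number (horizontal axis), blue without and red with azacitidine, with short lines at the means of each run. Sgce with azacitidine reached 204 CPM in run 1, against at most 111 CPM in the other runs.

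In the edgeR fit with treatment alone, maternally and paternally expressed members past the filter had nearly the same median. The 6 maternally expressed ones had a median log2 fold change of 0.05 (3 above and 3 below 0, range -0.22 to 0.47). The 5 paternally expressed ones had a median of 0.04 (3 above and 2 below 0, range -0.17 to 0.29). All genes tested had a median of 0.00, with 50.2% above 0. Without Grb10 and Gnas the median of the maternally expressed ones was 0.18. Over the alternatives the maternal median ran from -0.05 to 0.39 and the paternal one from -0.09 to 0.32. The paternal median kept its sign in 7 of 13 alternatives. With the run as a term it was -0.09, beside 0.01 for the maternal one and -0.01 for all genes tested. In the fit with no filter the medians were 0.04 over 12 maternally and 0.20 over 12 paternally expressed members, beside 0.05 over all genes, and both members that rose in that fit were maternally expressed. Of these the call of Cdkn1c was lost in 8 of 12 alternatives, and with the run as a term the paternally expressed Igf2 and Dlk1 were called too. The 5 paternally expressed members past the filter are the same genes as those whose own promoter lies in a stretch methylated in the egg, so these properties cannot be told apart among them. Of all 8 members of that kind in the table, 0 were called in the fit with no filter and 0 had an unadjusted p under 0.05, against 3.94% and 13.3% of all genes, and their median was 0.07. With 8 genes such counts say little of the class. No test was made between the classes.

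Spike-in scaling, which sets each library by its added control RNAs, moved the median of all genes to 0.31. Under it the medians were 0.39 for maternally and 0.32 for paternally expressed members, which is 0.08 and 0.01 above that shift, and all 11 members past the filter were above 0, as were 9087 of the 9344 genes tested. H19 and Rian then passed the threshold (0.87 and 0.73 on the log2 scale, edgeR adjusted p = 0.0026 and 0.027).

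The difference between libraries with and without azacitidine was not the same in every run for H19 and Mest. A test of whether the difference depended on the run (edgeR quasi-likelihood F test of the interaction) called 2 of 11 members, H19 (adjusted p = 6.27e-05) and Mest (adjusted p = 2.84e-11), against 3.02% of all genes tested. H19 fell by 0.65 in run 1 (SE 0.19, edgeR adjusted p = 0.025) and rose by 0.96 in run 2 (SE 0.21, adjusted p = 0.0021) and by 1.08 in run 3 (SE 0.19, adjusted p = 0.00053). In run 4 the value was 0.48 (SE 0.18, adjusted p = 0.18). In CPM, H19 without azacitidine averaged 27.2, 14.6, 21.7 and 30.1 over the runs and with azacitidine 16.4, 28.6, 43.9 and 43.6. The libraries of the groups were separate in runs 2 and 3 and overlapped slightly in runs 1 and 4. With 4 libraries per group in a run such separation says little, and its share over all genes was not counted. Without numbers 1 to 4 H19 rose by 0.78 (edgeR, adjusted p = 0.0038). Without run 1 the interaction of H19 had an adjusted p of 0.44 (edgeR). Without the 5 libraries that stand apart, run 1 is 2 libraries against 1 (number 3 with azacitidine), so that fit is no check of run 1; its run 1 value for H19 was -0.84.

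Mest rose by 1.02 in run 1 (SE 0.12) and fell by 1.85 in run 2 (SE 0.16), both past the threshold in edgeR. In runs 3 and 4 the values were -0.07 and -0.28. Its mean CPM without azacitidine was 71.9, 62.6, 15.6 and 21.4 over the runs and with azacitidine 151, 17.4, 14.8 and 17.3. In run 2 the libraries without azacitidine were thus near those of run 1, and the libraries with it near those of runs 3 and 4. Without run 1 the interaction of Mest had an adjusted p of 1.79e-06 (edgeR). Run 1 also held rises of Sgce (0.42, SE 0.11) and falls of Igf2r (0.52, SE 0.16) and Impact (0.44, SE 0.12), and Rian rose by 0.88 in run 2 (SE 0.21), each past the threshold in edgeR within that run. Counted by run, 5, 3, 1 and 0 of the 11 members were called, against 8.35%, 5.14%, 1.16% and 2.71% of all genes tested. With the 5 libraries that stand apart left out, the run 1 values, which then rest on 1 library with azacitidine, were 0.01 for Sgce, -0.52 for Igf2r and -0.39 for Impact.

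The runs also differed in the libraries without azacitidine. There 2 of 11 members differed between runs, H19 (adjusted p = 0.0040) and Mest (adjusted p = 2.23e-13), by edgeR's test of the runs, against 13.9% of all genes tested. In the fit with no filter 6 of 24 members differed, against 8.07% of all genes: H19, Mest, Gnas (adjusted p = 6.76e-09), Igf2 (1.90e-08), Grb10 (0.0073) and Rian (0.023), by edgeR. Igf2 was at 7.42 CPM in run 1 and 0.71, 1.16 and 2.22 CPM in the others. What distinguishes the runs was not tested.

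**Figure D4:**
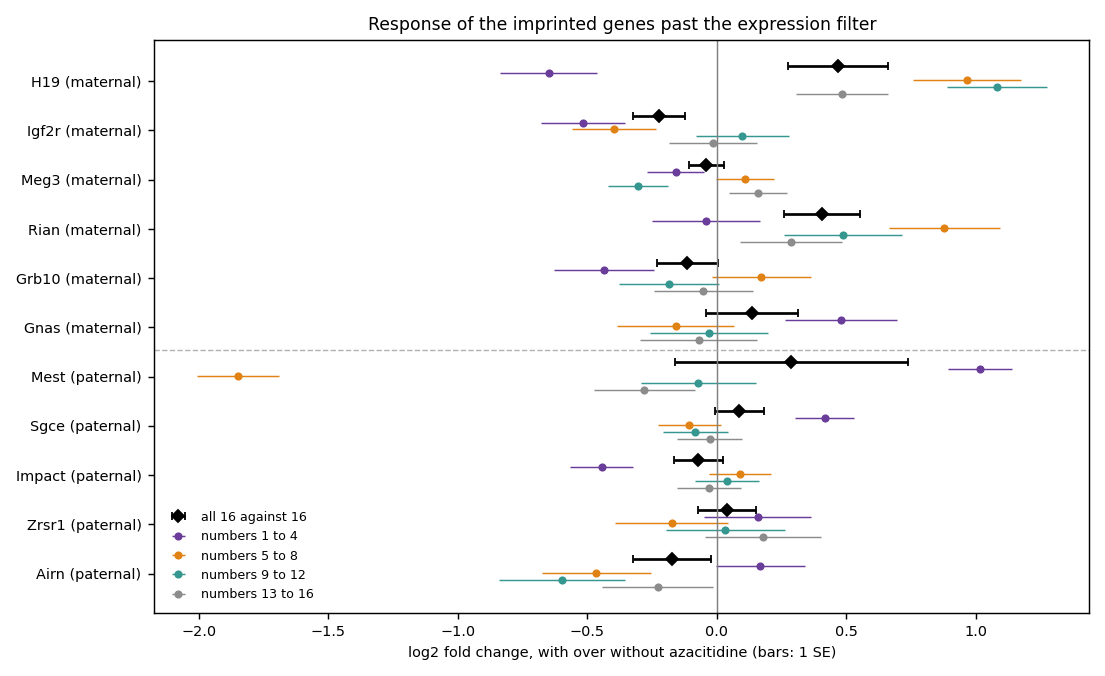
Log2 fold change, with over without azacitidine (horizontal axis, bars 1 SE), of the 11 imprinted members past the filter, for all libraries (black diamonds) and for each run of replicate numbers (coloured points); members above the dashed line are maternally and those below it paternally expressed. H19 was at -0.65 in numbers 1 to 4 and at 0.96 and 1.08 in the next runs, and Mest at 1.02 and -1.85.

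A further list held 28 genes of DNA methylation, chromatin and imprints. Among them were DNA methyltransferases, TET enzymes, zinc finger proteins that mark imprinted regions, and cofactors. Of the 28, 25 were in the table and 18 passed the filter. Of these 0 were called by edgeR, against 5.65% of all genes tested. At an unadjusted p under 0.05 there was 1 (Tet2, log2 difference -0.37, SE 0.17, edgeR adjusted p = 0.23), against 17.1% of all genes. The 18 had a median log2 fold change of -0.07. Dnmt1, the methyltransferase that copies methylation at cell division, had 43.8 ± 4.9 CPM without and 41.1 ± 5.3 CPM with azacitidine (edgeR, adjusted p = 0.50). Uhrf1, which brings DNMT1 to hemimethylated DNA, had 34.0 ± 5.4 and 31.3 ± 6.9 CPM (adjusted p = 0.63, edgeR). Trim28, a corepressor at imprinted regions, had 27.9 ± 5.8 and 29.98 ± 10.5 CPM (adjusted p = 0.67, edgeR). Zfp57, the factor that binds methylated imprinted regions, had only 36 and 47 UMIs (edgeR without filter, adjusted p = 0.97).

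Of 56 other imprinted or neighbouring genes, 39 were in the table and 20 passed the filter, of which 2 rose and 0 fell, against 5.65% of all genes called in either direction and 3.65% called higher. Slc38a4, an amino acid transporter, rose from 57.5 ± 10.4 to 69.4 ± 10.4 CPM (log2 difference 0.28, SE 0.09, edgeR adjusted p = 0.044). Qpct, a glutaminyl cyclase, rose from 19.7 ± 3.3 to 27.4 ± 9.3 CPM (log2 difference 0.47, SE 0.13, edgeR adjusted p = 0.025). Its difference depended on the run just under the threshold (edgeR interaction, adjusted p = 0.04999). By run Qpct passed only in run 2, at 0.92 (edgeR, adjusted p = 2.06e-05), and runs 1, 3 and 4 had 0.15, 0.48 and 0.10. The median of the 20 was 0.02. Among 19 partners of IGF2 and DLK1 (receptors, binding proteins and Notch genes), 11 passed the filter, of which 1 fell and 0 rose. Of all genes 5.65% were called in either direction and 2% called lower. Insr, the insulin receptor, fell from 12.0 ± 2.5 to 8.92 ± 2.30 CPM (log2 difference -0.45, SE 0.12, edgeR adjusted p = 0.019). Without filter 2 of the 19 were called, Insr and Hes1, against 3.94% of all genes. Hes1, a target of Notch signalling, rose, with 64 UMIs without and 161 with azacitidine (log2 difference 0.77, SE 0.23, edgeR adjusted p = 0.036). None of Slc38a4, Qpct and Insr kept its call when the libraries of each run were summed or every library was thinned to the lowest total.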

How the data were processed

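The deposited values are counts: each cell is the whole number of UMIs of a gene in a library, not normalised, as the values themselves show. Per the labels' protocols, total RNA was column-purified, and cDNA was barcoded, pooled and pre-amplified before a transposase-based library kit. Per the submitters' processing notes, STAR 2.4.0, bedtools 2.17.0 and the build mm10 were used; annotation, strand setting and UMI collapsing are not given in the sources used here. The table's 68 spike-in rows (0.106% of UMIs) stayed out of library sizes and tests. Of the mouse genes, 21506 matched a GENCODE M21 symbol and 323 did not.

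The members and the gene lists were chosen with earlier results of these data known. Groups came from the treatment label, 16 against 16. The test was edgeR 4.0.16 (robust quasi-likelihood, TMM scaling, default filter by group, two-sided), with Benjamini-Hochberg adjustment over all genes tested and a threshold of 0.05, and again with no filter. CPM is counts per 1000000 of the TMM library size, and for sums over a group of the summed library totals. Summed UMIs have exact 95% intervals that cover counting error only, and a floor of 3 counts. All 24 members present are named; those called, at an unadjusted p under 0.05 or with a mean of at least 5 UMIs are described in depth. Of each other list, called genes up to 4 in order of p are named, with Dnmt1, Uhrf1, Zfp57 and Trim28. Tet2 is named for its unadjusted p.

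The alternatives were the replicate number as a block, other scalings (DESeq2 size factors, library totals, spike-ins), DESeq2 1.42.0, limma-voom (limma 3.58.1), another filter, a run term, no numbers 1 to 4, sums of each run, and thinning. Leaving out the 5 libraries that stand apart, leaving out each library, and other settings of the interaction test were added after seeing the data. The scripts were tested on simulated data. Software was R 4.3.3 and, under Python 3.11.15, pandas 2.3.3, numpy 2.4.6, matplotlib 3.10.9 and scipy 1.17.1.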

Additional observations from a re-analysis of the deposited data

Results flagged for a closer look

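The response of 2 members to azacitidine differed between the runs of replicate numbers by a test of that difference itself (edgeR quasi-likelihood F test of the interaction, adjusted over all genes tested). For H19 the adjusted p was 6.27e-05, with log2 fold changes of -0.65, 0.96, 1.08 and 0.48 in runs 1 to 4. For Mest it was 2.84e-11, with -1.85 in run 2 and 1.02 in run 1, and -0.07 and -0.28 in runs 3 and 4. In the libraries without azacitidine both genes also differed between runs. What the runs are is not given in the sources used here, and no cause was tested.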

How the results depend on the processing

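Over all genes 528 were called, and other settings gave 897 (replicate block), 993 (run term), 108 (sums of each run) and 264 (libraries thinned to the lowest total). Of the members past the filter 0 were called, against 5.65% of all genes tested. Counts under other settings follow, with the share of all genes tested in brackets. The replicate block gave 1 (9.6%), spike-in scaling 2 (3.8%), the run term 1 (10.6%), and leaving out numbers 1 to 4 gave 3 (6.27%). Sums of runs with a run term gave 1 (3.26%), and leaving out the 5 libraries that stand apart gave 2 (6.08%). With so few members such counts say little, and 7 of 13 alternatives gave 0. Without numbers 1 to 4 Mest turned from 0.29 to -0.98. In the fit with no filter 2 of 24 members were called, against 3.94% of all genes, and other settings follow in the same manner. The replicate block gave 4 (6.22%), spike-in scaling 5 (4.03%), the run term 5 (6.23%) and limma-voom 1 (3.72%). DESeq2 gave 1 (5.22%), and 4 of its adjusted p-values for members were not given. Sums of runs gave 1 (0.939%), thinning 1 (2.37%) and the default filter 0 (5.65%). Spike-in scaling moved the medians of the maternally and paternally expressed members to 0.39 and 0.32. The cause of these changes was not tested.

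Leaving out each library in turn gave 471 to 568 calls over all genes, 0 to 1 of the members past the filter and 1 to 3 with no filter. The interaction called 2 of 11 members, against 3.02% of all genes. With no filter it called 5 of 24 members (3.15% of all genes), and without numbers 1 to 4 it called 1 (2.12%). The other lists gave 0 to 1 (genes of DNA methylation, chromatin and imprints), 0 to 4 (other imprinted genes) and 0 to 2 (partners of IGF2 and DLK1) calls. The share of all genes called over these settings ran from 0.879% to 10.6%.

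Replicate numbers are shared by both groups, but only 12 of 16 same-numbered pairs correlated above 0.1 (-0.28 to 0.82), and 4 of 16 libraries without azacitidine were best matched by their own number, so the numbers were not taken as pairs. With the replicate block Rian (adjusted p = 0.015) and Igf2 (0.00023) passed, and Cdkn1c (0.24) and Dlk1 (0.23) did not, by edgeR.

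Depth limits the low members: 13 of 24 were below the filter, with 0 to 254 UMIs summed over a group.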

Other observations

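H19 and Igf2, which share enhancers, moved in opposite directions in run 1, where H19 fell by 0.65 and Igf2 rose by 0.97 on the log2 scale (edgeR, adjusted p = 0.025 and, without filter, 0.0071). In run 3 H19 rose by 1.08 and Igf2 had 0.99, which was not past the threshold on 7 and 13 UMIs. In run 2 H19 rose by 0.96 and Igf2 had -0.59 on 4 and 4 UMIs, not past the threshold. In run 4 H19 had 0.48 and Igf2 had 1.17 on 14 and 36 UMIs, neither past the threshold. Whether the 2 genes moved together was not tested. All 3 libraries with more than 1 UMI of Cdkn1c (7, 6 and 4) were also the 3 libraries with the highest Gnas among those with azacitidine (758 to 795 CPM), and numbers 1 and 2 without azacitidine, which had Gnas at 510 to 771 CPM, had 0 and 1 UMI of Cdkn1c. The 3 libraries with azacitidine were also among the deepest of the study, and their Cdkn1c UMIs came to 1.47, 1.42 and 1.06 CPM. Number 7 with azacitidine, with a total of 4218313 UMIs, had 1 UMI of Cdkn1c, or 0.24 CPM. The part of depth was not tested. The libraries named here were noticed in the data, and no test was made.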
